A study of Mus musculus with 20 samples.

Results

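The genes described here are nucleus-encoded genes annotated as rRNA or misc_RNA in compartmentalized motoneurons, mainly small structured RNAs and, for 21 of them, other misc_RNA such as pieces of long non-coding RNAs. They were chosen by a rule on level: annotated as rRNA or misc_RNA, not on the mitochondrial genome, and with a mean of at least 1 FPKM (fragments scaled to the length of the gene and to the mapped fragments of the library) over all 20 libraries. Of 39174 genes in the files, 945 belonged to these classes, 830 of them were listed at 0 FPKM in all 20 libraries, and 61 met the rule, 8 annotated as rRNA and 53 as misc_RNA. Copies with identical FPKM in every library were counted once, which left 58 distinct genes. The genes just inside the limit were Gm22667 at 1.01 FPKM, Gm24105 at 1.15 FPKM and uc_338 at 1.16 FPKM, and those just outside were Gm22649 at 0.990 FPKM, n-R5s28 at 0.968 FPKM and NEAT1_2 at 0.911 FPKM. A gene could reach the limit through 1 group alone: 12 of the 58 had a group mean of at least 1 FPKM in exactly 1 of the 4 groups and 23 in all 4. Such a gene had to differ between groups, so the counts below describe these genes and are no evidence that the class as a whole changed.

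The libraries came from spinal motoneurons of E12.5 CD-1 mouse embryos, enriched on dishes coated with an antibody to the p75 receptor and grown for 7 days in microfluidic chambers. In these chambers axons pass through microgrooves, so that RNA of the somatodendritic compartment (cell bodies and dendrites) and of the axonal compartment can be lysed apart. Control motoneurons were transduced with the empty lentiviral vector, which also expresses GFP, and Tdp-43 knockdown motoneurons with the same vector carrying a short hairpin RNA against Tdp-43, the RNA-binding protein encoded by Tardbp. Total RNA of both compartments was amplified by PCR over the whole transcriptome, giving 4 control and 6 knockdown libraries for each compartment, all of them from transduced cells. The labels name no culture, animal or litter, so p-values measure the spread between these libraries, and they do not name the hairpin used. Antibody enrichment does not yield pure motoneurons, and in such bulk libraries fewer cells of a type and less RNA per cell cannot be told apart.

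The small structured RNAs among them carry out the cell's basic RNA and protein work. The 5.8S rRNA is cut from the long pre-rRNA made by RNA polymerase I and pairs with 28S rRNA in the large ribosomal subunit, while 5S rRNA is made from its own gene cluster by RNA polymerase III and joins the same subunit. RNA polymerase III also makes 7SL, the scaffold of the signal recognition particle that brings ribosomes to the endoplasmic reticulum, 7SK, which holds the elongation factor P-TEFb inactive in the nucleus, the Y RNAs bound by Ro and La, and the RNA subunits of RNase P and RNase MRP, which cut precursor tRNA and precursor rRNA. The mouse genome holds many copies and fragments of these genes, most of which are thought to be silent pseudogenes.

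Sequence set the families apart better than the annotation did. The label 7SL-like covered only 7 of the 53 misc_RNA genes. By similarity to the reference RNAs, 16 were 7SK genes or copies, 4 RNase P, 4 Y RNA and 1 RNase MRP, and 21 were other misc_RNA, mostly conserved pieces of long non-coding RNAs. The 8 rRNA genes were 2 of 5.8S and 6 of 5S. Rn7s1 (on the plus strand) is identical in sequence to Rn7s2 (on the minus strand of the same chromosome, 12), and both overlap an annotated miRNA model on the same strand. Gm22179 on chromosome 6, which also overlaps an annotated miRNA model, and Gm26461 on chromosome 9, in an intron of Zfp949, share the 5′ part of Rn7s1 and carry a different 3′ end. The 5S gene n-R5s106 lies in the cluster on chromosome 8, in an intron of Gm20388 on the opposite strand, and is identical to 3 other genes that received the same FPKM. The aligned 5′ part matched Rn7s1 at 98.6% of 214 bases in Gm22179 and at 96.5% of 201 bases in Gm26461. Of all 50-base windows, none of Rn7s1, 48.8% of Gm22179 and 77.2% of Gm26461 occurred in no other annotated rRNA, misc_RNA or ribozyme gene. Reads of the shared part can be assigned to several of these genes, so that the members of one family are not independent measurements.

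The depth behind a value was read from the 95% interval that Cufflinks gives with each FPKM, as the number of fragments that such an interval implies. It covers counting error only, and PCR copies are not independent molecules. Of the 58 distinct genes, 15 reached 10 implied fragments in at least 1 library, whereas 45 of all 61 stayed under 6 in each. Of the 61, 14 were above 0 in all 20 libraries and 31 in at most 5. FPKM also divides by an effective length, which for RNAs shorter than the sequenced fragments depends on the fragment lengths of each library, so levels are compared between libraries more safely than between genes.

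**Figure D1:**
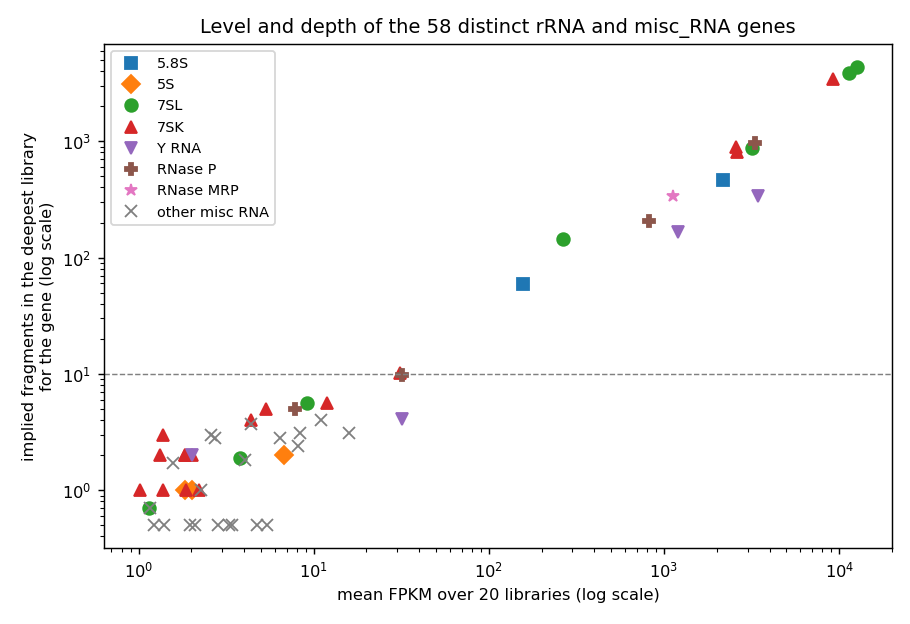
Mean FPKM over the 20 libraries (log axis) against the highest number of implied fragments in any library (log axis) for the 58 distinct genes, coloured by family, with the dashed line at 10 fragments. The 15 genes on or above the line hold both 5.8S genes, 4 of 7SL and 4 of 7SK, and none of the 5S genes or of the other misc_RNA.

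The libraries differed in ways that touch these genes. Relative depth, set to 1.0 in the deepest library, was 0.350 to 0.369 in axonal control, 0.593 to 1.0 in somatodendritic control, 0.092 to 0.919 in axonal knockdown and 0.148 to 0.831 in somatodendritic knockdown libraries. Mitochondrial genes held 8.88 to 14.96% of the FPKM in all libraries except control axonal replicate 4 at 33.04% and knockdown axonal replicates 2, 4, 5 and 6 at 38.45 to 47.73%. Tardbp was 13.4 to 32.3 FPKM in the axonal control, 19.0 to 30.8 in the somatodendritic control and 0 to 8.54 in the somatodendritic knockdown libraries, but the library labelled axonal knockdown replicate 1 was at 33.2 FPKM, above all control libraries, and the other 5 axonal knockdown libraries at 1.21 to 13.98 FPKM. Of the 7 motoneuron markers in the files, Chat, Isl2 and Mnx1 were listed at 0 in all 20 libraries, and the summed markers were 90.1 to 116 FPKM in somatodendritic control and 37.6 to 59.1 in somatodendritic knockdown libraries, while axonal libraries held 29.2 to 67.3 FPKM in control and 6.92 to 42.8 FPKM after knockdown. Isl1 and Nefl were the only motoneuron markers with a mean of at least 1 FPKM in the control groups. In axonal knockdown libraries Nefl alone was above 0, so that the sum there is Nefl. Prph went the other way, with a mean of at least 1 FPKM only in the somatodendritic knockdown. Astrocyte markers summed to 95.9 to 151 and 84.6 to 218 FPKM in somatodendritic control and knockdown libraries, and 4 of 5 were detected in each. Their part in the results was not tested.

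To compare groups across all genes, FPKM were scaled by the median of ratios within each comparison and tested with limma on log2(FPKM + 1), with Benjamini-Hochberg adjustment over 14062 genes and a call at an adjusted p under 0.05. Log2 differences below are on this scale and understate the change of low genes. After scaling, the median gene lay at -0.06 between compartments in control, at -0.06 between compartments in knockdown, at -0.13 for somatodendritic knockdown and at -0.16 for axonal knockdown. With FPKM as deposited these medians were -0.47, -0.24, 0.02 and 0.21. The gene of highest mean FPKM in each family, and Gm26461, were also compared as deposited FPKM. They were compared by a two-sided exact permutation test over libraries, 36 tests in all. The smallest possible p is 0.0286 with 4 against 4 libraries, 0.00476 with 6 against 4 and 0.00216 with 6 against 6. Gm26461 does not lead its family, 7SL, and was added with earlier results of these data known. Its permutation p-values are therefore a description and no independent support, and they enter the adjustment of the other tests. Both knockdown comparisons use the control libraries that also enter the control comparison of compartments.

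The 5.8S rRNA gene n-R5-8s1 fell after Tdp-43 knockdown in both compartments and overlapped between compartments in control and in knockdown. In the somatodendritic control, libraries 1 to 4 held 3889, 3087, 4401 and 2301 FPKM, and in the 6 somatodendritic knockdown libraries the level ranged from 836.8 to 1685 with a median of 1208 FPKM. In the axonal control it was at 5036, 3079, 4065 and 3596 FPKM, and in the axonal knockdown libraries at 719.6 to 1271 with a median of 1178 FPKM. Every knockdown library lay below every control library of its compartment. That includes axonal knockdown replicate 1, in which Tardbp was not lowered, at 1230.5 FPKM. The mean fell to 35.1% of control in the somatodendritic compartment (1200 ± 303 against 3419 ± 921 FPKM, mean ± SD, n = 6 and 4, exact permutation p = 0.00476, adjusted p = 0.0214). In the axonal compartment it fell to 28.1% (1109 ± 202 against 3944 ± 832 FPKM, n = 6 and 4, exact permutation p = 0.00476, adjusted p = 0.0214). These are the smallest p-values this design allows. In limma the log2 difference was -1.72 for somatodendritic knockdown (SE 0.23, adjusted p = 0.00712) and -2.35 for axonal knockdown (SE 0.28, adjusted p = 0.00269). Without libraries of a relative depth under 0.3 the axonal difference was -2.35 and no longer passed (adjusted p = 0.079). The gene held a median of 60.7 implied fragments in the axonal knockdown libraries, 8.0 at the lowest, and 174.7 to 318.9 in the axonal control libraries.

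The other 5.8S gene, Gm24601, a copy on chromosome 6 with 78.3% identity to n-R5-8s1 over 129 bases, was lower in every knockdown library as well. The somatodendritic control libraries held 389.5, 547.0, 596.6 and 307.3 FPKM and the knockdown libraries 55.3, 43.5, 58.2, 20.8, 75.8 and 0 FPKM. In the axonal control it was at 330.3, 203.0, 258.5 and 246.9 FPKM. In the axonal knockdown it was at 12.7 FPKM in replicate 1 and listed at 0 in the other 5 libraries. The groups did not overlap in either compartment. The axonal difference was called (log2 difference -7.72, SE 0.66, limma adjusted p = 0.000238), whose size depends on the pseudocount of 1 because 5 libraries are at 0. The somatodendritic difference of -4.36 (SE 1.06) missed the threshold in limma (adjusted p = 0.0854). It was called with a pseudocount of 5, with all 20 libraries in 1 fit and without knockdown replicate 6, the only somatodendritic library of a relative depth under 0.3. Relative to n-R5-8s1 in the same library, Gm24601 was 6.59 ± 0.209% in axonal control, 13.7 ± 3.16% in somatodendritic control, 3.75 ± 2.46% in somatodendritic knockdown and 0.173 ± 0.423% in axonal knockdown libraries (SD, n = 4, 4, 6 and 6). It held at most 3.0 implied fragments in any knockdown library.

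The 5S rRNA was listed above 0 almost only in control axons, and on very few reads. The gene n-R5s106, which stands for 4 identical genes, was at 38.7, 15.9, 34.5 and 44.0 FPKM in the axonal control libraries. It was at 2.91 FPKM in somatodendritic control replicate 3 and listed at 0 in the other 3 somatodendritic control and in all 12 knockdown libraries. The remaining 5S genes were seen in no other group either: n-R5s115 at 19.4 and 21.2 FPKM in axonal control replicates 1 and 2, and n-R5s136 at 19.4 and 17.3 FPKM in replicates 1 and 3. Only n-R5s106 was above 0 in all 4 axonal control libraries. These 5S genes reached the 1 FPKM limit through control axons alone, so that the rule itself required them to be higher there, and their levels are given here as a description, and limma calls of n-R5s106 in the counts below are no support. It reached at most 2.0 implied fragments in a library, while the axonal control libraries were shallower than all somatodendritic control libraries.

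**Figure D2:**
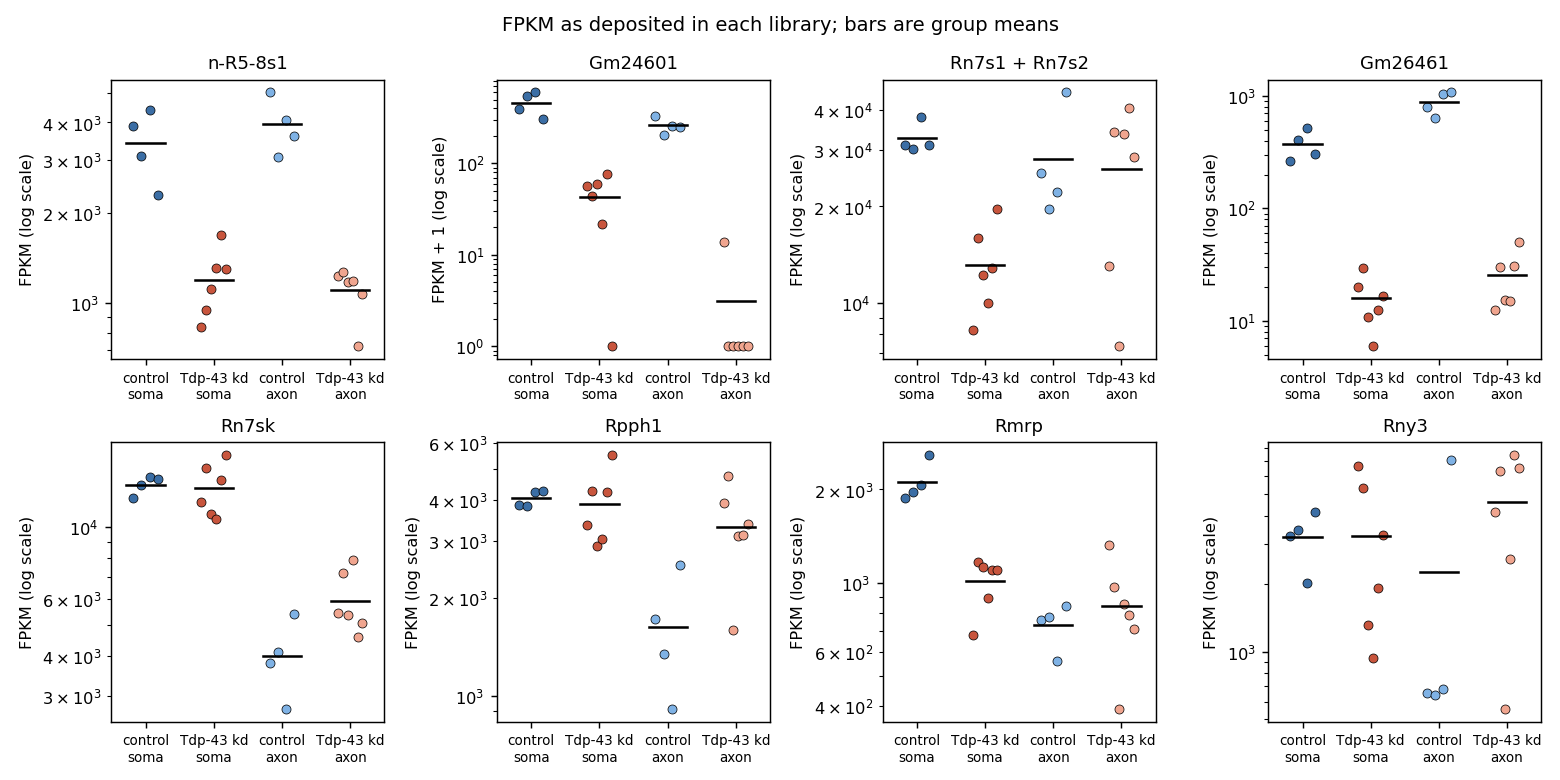
FPKM in each library (points, log axes) with the group mean (bar) for n-R5-8s1, Gm24601 (as FPKM + 1), the sum of Rn7s1 and Rn7s2, Gm26461, Rn7sk, Rpph1, Rmrp and Rny3 in the 4 groups, where soma is the somatodendritic and axon the axonal compartment and kd is knockdown. n-R5-8s1 and Gm26461 are lower in all knockdown libraries of both compartments, Rn7sk is lower in all axonal than in all somatodendritic libraries, and the 7SL sum is lower in all somatodendritic knockdown than in all somatodendritic control libraries.

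The 2 full-length 7SL genes, Rn7s1 and Rn7s2, had the highest FPKM of the set as a mean over the 20 libraries and fell after Tdp-43 knockdown in the somatodendritic compartment. Since they are identical, their FPKM were added. The sum was 31126, 30272, 38161 and 31207 FPKM in somatodendritic control libraries 1 to 4 and 8254, 15962, 12184, 9998, 12885 and 19694 FPKM in the somatodendritic knockdown libraries. All knockdown libraries lay below all control libraries, and the mean was 40.3% of control. In limma the log2 difference was -1.56 for Rn7s1 (SE 0.26, adjusted p = 0.0206) and -1.60 for Rn7s2 (SE 0.27, adjusted p = 0.0214), and the exact permutation test of Rn7s2 gave p = 0.00476 (adjusted p = 0.0214). Both calls were lost on leaving out any somatodendritic control library or knockdown replicate 5. They were also lost with quantile normalization, with no filter on low values and with all 20 libraries in 1 fit (adjusted p up to 0.437 for Rn7s1 and 0.451 for Rn7s2), with no change of direction.

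Axonal 7SL did not separate by condition. The sum was 25482, 19603, 22211 and 45363 FPKM in the axonal control and 13072, 34244, 7326, 33669, 40440 and 28488 FPKM in the axonal knockdown libraries, which overlap. The mean of the knockdown libraries was 93.1% of control, and limma gave a log2 difference of -0.79 for Rn7s1 (SE 0.66, adjusted p = 0.751). With FPKM re-expressed without mitochondrial genes, the 7SL family sum was 111% of control in place of 91.8%, so that its direction depends on the scaling. The axonal level moved with the mitochondrial share: the 5 axonal libraries with 33.04% or more held 28488 to 45363 FPKM and the 5 others 7326 to 25482 FPKM. Whether this share has a part in the axonal values was not tested. The difference of the 2 knockdown effects was 0.82 for Rn7s2 (SE 0.63) and was not called (limma adjusted p = 0.96).

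Gm26461, the 7SL copy on chromosome 9 with its own 3′ end, showed the largest knockdown difference among members above 0 in every library. It was at 264.6, 403.3, 522.8 and 305.6 FPKM in somatodendritic control libraries and at 5.94 to 29.6 FPKM, with a median of 14.5, in the somatodendritic knockdown libraries. In axons it was at 797.6, 640.4, 1036 and 1073 FPKM in control and at 12.6 to 50.3 FPKM, with a median of 22.7, in knockdown libraries. No knockdown library came within a factor of 5 of any control library of its compartment. The lowest axonal level, 12.6 FPKM, was that of axonal knockdown replicate 1, in which Tardbp was not lowered. The mean fell to 4.26% of control in the somatodendritic compartment (15.9 ± 8.26 FPKM against a mean of 374 FPKM, n = 6 and 4) and to 2.89% in the axonal compartment (25.7 ± 14.5 against 887 ± 205 FPKM, n = 6 and 4), each with an exact permutation p of 0.00476 and an adjusted p of 0.0214. The log2 differences in limma were -4.77 (SE 0.38, adjusted p = 0.000276) and -5.70 (SE 0.45, adjusted p = 0.000185). Both calls held without libraries of a relative depth under 0.3. The permutation p-values of Gm26461 are no independent support, because it was added to those tests with earlier results known. Gm26461 also rose from the somatodendritic to the axonal compartment in control motoneurons, to 237% of the somatodendritic mean (log2 difference 1.79, SE 0.27, limma adjusted p = 0.00954; exact permutation p = 0.0286, the smallest possible, adjusted p = 0.0735), whereas the compartments overlapped in knockdown. In the same control libraries dividing progenitor markers summed to 105 to 193 FPKM in axons and 59.6 to 89.6 in the somatodendritic compartment, with all 5 detected, and fibroblast markers to 11.9 to 47.9 and 1.43 to 11.9 FPKM, with 4 of 5 detected in axons, where Lum was at 0. In knockdown libraries, where Gm26461 overlapped between compartments, progenitor markers summed to 21.1 to 268 FPKM in axons and 12.7 to 79.5 in the somatodendritic compartment, and fibroblast markers to 11.4 to 81.1 and 0 to 13.9 FPKM. Their part in the Gm26461 levels was not tested. Gm26461 held 39.7 to 145.5 implied fragments in control libraries and 0.2 to 5.6 in knockdown libraries.

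The share of Gm26461 in 7SL does not depend on a scaling of the libraries. Relative to the sum of Rn7s1 and Rn7s2 in the same library it was 3.36 ± 0.957% in axonal control, 1.13 ± 0.258% in somatodendritic control, 0.115 ± 0.0632% in axonal knockdown and 0.126 ± 0.0713% in somatodendritic knockdown libraries (SD, n = 4, 4, 6 and 6). The lowest control library stood at 0.850% and the highest knockdown library at 0.242%. Gm22179, whose 5′ part is closer to Rn7s1, moved far less against that sum, at 12.8 ± 0.693% and 11.8 ± 0.588% in axonal and somatodendritic control and 14.4 ± 0.469% and 14.4 ± 1.26% in axonal and somatodendritic knockdown libraries, and in axons all knockdown libraries were slightly above all control libraries. The copies of one family thus did not move in parallel.

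**Figure D3:**
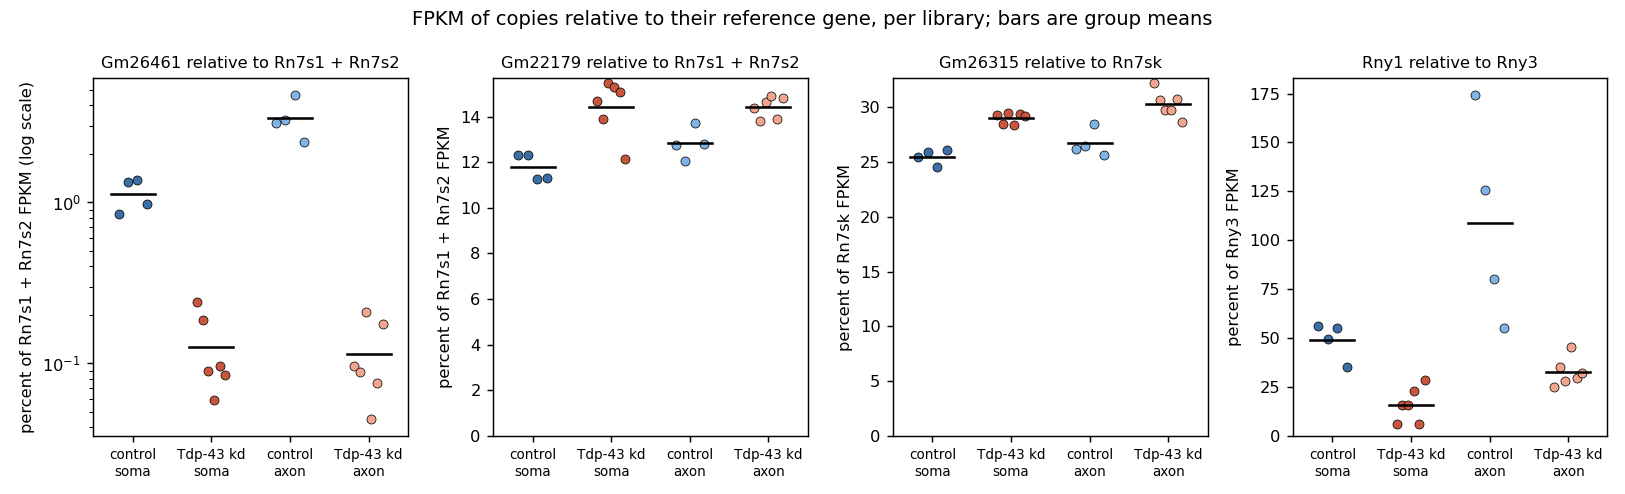
Level of 4 copies as a percent of the leading gene of their family in the same library (points, one per library, with group means as bars): Gm26461 and Gm22179 relative to the sum of Rn7s1 and Rn7s2, Gm26315 relative to Rn7sk, and Rny1 relative to Rny3, where soma is the somatodendritic and axon the axonal compartment and kd is knockdown. Gm26461 is lower in all 12 knockdown than in all 8 control libraries, at most 0.242% against at least 0.850%, while Gm22179 stays between 11.3 and 15.5% in every library.

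The other 7SL copies were lower after knockdown in the somatodendritic compartment too. Gm22179 fell with a log2 difference of -1.29 (SE 0.21, limma adjusted p = 0.0175), a call lost without somatodendritic control replicate 1, 2 or 3, with no filter on low values and with all 20 libraries in 1 fit (adjusted p up to 0.348). Gm24514 was at 19.3, 49.7, 35.5 and 22.6 FPKM in somatodendritic control and at 0 to 3.72 FPKM in somatodendritic knockdown libraries (limma adjusted p = 0.00712, or 0.0684 with a pseudocount of 0.1). In axons it was at 5.02 to 19.7 FPKM in control and listed at 0 in all 6 knockdown libraries (limma adjusted p = 0.00187, or 0.0525 without libraries of a relative depth under 0.3). Gm23153, at 7.77 to 19.6 FPKM in somatodendritic control and at most 2.12 FPKM in knockdown libraries, and Gm24105, at 1.27 to 8.75 FPKM and listed at 0, were called as well (adjusted p = 0.00712 and 0.0147), the latter call lost with a pseudocount of 5 and with all 20 libraries in 1 fit (adjusted p up to 0.0553). Gm24514 reached at most 5.6 implied fragments in a library, Gm23153 1.9 and Gm24105 0.7, so these calls rest on very few reads. Gm24514, Gm23153 and Gm24105 met the 1 FPKM limit through control libraries, which favoured a lower value in knockdown, so their calls add no support. Apart from them, Rn7s1, Rn7s2, Gm22179 and Gm26461 were called lower in the somatodendritic compartment and Gm26461 in the axonal compartment, from reads they partly share.

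The 7SK RNA was lower in axons than in the somatodendritic compartment in both conditions. Rn7sk was at 12271, 13467, 14260 and 14044 FPKM in somatodendritic control and at 3801, 4111, 2741 and 5371 FPKM in axonal control libraries. In the knockdown it ranged from 10620 to 16674 FPKM with a median of 12980 in the somatodendritic and from 4585 to 7926 FPKM with a median of 5384 in the axonal compartment. All axonal libraries lay below all somatodendritic libraries of the same condition. The axonal mean was 29.7% of the somatodendritic mean in control (4006 ± 1082 FPKM in axons, n = 4, exact permutation p = 0.0286, adjusted p = 0.0735) and 44.8% in knockdown (5929 ± 1329 FPKM in axons, n = 6, exact permutation p = 0.00216, adjusted p = 0.0214). After scaling limma gave -1.26 in control (SE 0.25, adjusted p = 0.0241) and -0.92 in knockdown (SE 0.31, adjusted p = 0.162), where the scaled groups overlapped. The control call for Rn7sk was lost in 6 of the 8 fits that left out 1 library, those without axonal replicate 1 or 2 or any somatodendritic replicate, and with no filter on low values or a pseudocount of 0.1 (adjusted p up to 0.619). Between knockdown and control the log2 difference was -0.26 in cell bodies and dendrites (SE 0.19, adjusted p = 0.594) and 0.05 in axons (SE 0.35, adjusted p = 0.98). As deposited, axonal Rn7sk in knockdown was 148% of control, with overlap (exact permutation p = 0.0476, adjusted p = 0.112), so that the size of this difference depends on the scaling.

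Gm26315, a 7SK copy in an intron on chromosome 2, and Gm24447, a copy on chromosome 15, were close to a fixed share of Rn7sk. They were called lower in axons of control motoneurons with log2 differences of -1.20 (SE 0.19, adjusted p = 0.0106) and -1.12 (SE 0.19, adjusted p = 0.0127), the latter call lost without somatodendritic replicate 2 or 3. With no filter on low values both calls were lost (adjusted p = 0.0789 for Gm26315 and 0.104 for Gm24447). Gm26315 was at 26.7 ± 1.22% of Rn7sk in axonal control, 25.5 ± 0.703% in somatodendritic control, 30.3 ± 1.22% in axonal knockdown and 29.0 ± 0.469% in somatodendritic knockdown libraries, with all knockdown above all control libraries in each compartment. As deposited, Gm26315 itself was at 1410 to 2357 FPKM in axonal knockdown and at 779.9 to 1379 FPKM in axonal control libraries, 169% of control without overlap, but the groups overlapped after scaling (log2 difference 0.24, SE 0.29, limma adjusted p = 0.846). Gm24146, a copy on chromosome 5 with 97.5% identity over 238 bases, was also called lower in axons (5.44 to 11.5 against 23.1 to 52.4 FPKM, adjusted p = 0.0476), on at most 5.6 implied fragments, and lost the call without any 1 of the 8 libraries. Gm26035, a copy on the X chromosome, was a lower share of Rn7sk in the knockdown. It was at 0.898 ± 0.294% of Rn7sk in axonal control, 0.446 ± 0.101% in somatodendritic control, 0.126 ± 0.123% in axonal knockdown and 0.247 ± 0.0520% in somatodendritic knockdown libraries. It was not called in limma (adjusted p = 0.189 for axonal and 0.11 for somatodendritic knockdown), except for axonal knockdown with all 20 libraries in 1 fit. Gm26035 held 2.7 to 4.9 implied fragments in axonal control, 0 to 1.9 in axonal knockdown and 0.8 to 5.0 in somatodendritic knockdown libraries. Gm24146 also fell as a share of Rn7sk, from a mean of 0.228 to 0.0382% in axons and from 0.254 to 0.0722% in the somatodendritic compartment. The summed nuclear and somatodendritic markers Malat1, Meg3, Neat1, Snhg11 and Map2, all 5 detected in each group, were 514 to 831 FPKM in axonal control and 1164 to 1423 in somatodendritic control libraries. In knockdown they were 1299 to 2774 FPKM in axons and 1144 to 1834 in the somatodendritic compartment, so that they did not separate the compartments there as Rn7sk did. Their part in the 7SK levels was not tested.

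Rpph1, the RNA of RNase P, lies on chromosome 14 within an exon of Ccnb1ip1 on the same strand, so reads of both genes cannot be told apart. It was at 3863, 3849, 4241 and 4268 FPKM in somatodendritic control and at 1729, 1341, 909.7 and 2521 FPKM in axonal control libraries, which did not overlap. The axonal mean was 40.1% of the somatodendritic mean (exact permutation p = 0.0286, adjusted p = 0.0735), and limma gave a log2 difference of -0.89 (SE 0.29, adjusted p = 0.107). Rpph1 was called lower in control axons with FPKM as deposited, with quantile normalization and without axonal replicate 4. In axons Rpph1 was higher in knockdown libraries, at 1597 to 4757 FPKM with a median of 3252, than in control libraries on average, but the groups overlapped (exact permutation p = 0.0286, adjusted p = 0.0735) and limma gave 0.53 (SE 0.43, adjusted p = 0.745). In the somatodendritic compartment knockdown libraries held 2888 to 5513 FPKM, around the control values. Rprl3, an RNase P copy with 86.0% identity, followed Rpph1 at 19.8 ± 3.29% of it in axonal control, 24.7 ± 1.37% in somatodendritic control, 24.0 ± 2.99% in axonal knockdown and 26.9 ± 2.78% in somatodendritic knockdown libraries. Between compartments in control it was not called (limma adjusted p = 0.0858), except with FPKM as deposited, with a filter at 5 FPKM and without axonal replicate 4.

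Rmrp, the RNA of RNase MRP, differed between compartments in control and between conditions in the somatodendritic compartment. It was at 1870, 1958, 2068 and 2581 FPKM in somatodendritic control and at 756.7, 773.2, 560.7 and 839.7 FPKM in axonal control libraries. Somatodendritic knockdown libraries held 680.6 to 1167 FPKM with a median of 1100 FPKM, below all somatodendritic control libraries. Axonal knockdown libraries held 391.4 to 1324 FPKM with a median of 821 FPKM and overlapped with both the axonal control and the somatodendritic knockdown group. Rmrp was lower in control axons with a log2 difference of -1.01 (SE 0.16, limma adjusted p = 0.0119; exact permutation p = 0.0286, the smallest possible, adjusted p = 0.0735), a call lost with all 20 libraries in 1 fit (adjusted p = 0.121). It fell in the somatodendritic knockdown with -1.29 (SE 0.18, limma adjusted p = 0.00755), to 47.7% of control (1011 ± 187 against 2119 ± 318 FPKM, n = 6 and 4, exact permutation p = 0.00476, adjusted p = 0.0214). The axonal knockdown difference was -0.40 (SE 0.36, adjusted p = 0.77). With FPKM as deposited the axonal knockdown mean was above control (840 ± 307 against 733 ± 120 FPKM) and with scaled FPKM it was 81.3% of control, so that its direction depends on the scaling. The difference between the 2 knockdown effects, 0.87 (SE 0.40), was not called (limma adjusted p = 0.878). Rmrp overlaps a lincRNA model on its own strand and Ccdc107 on the opposite strand.

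The Y RNAs, which bind the Ro and La proteins, varied widely among libraries of 1 group. Rny3 was at 655.1, 643.5, 684.4 and 7052 FPKM in axonal control and at 3240, 3445, 2013 and 4164 FPKM in somatodendritic control libraries. It ranged from 555.8 to 7439 FPKM in axonal and from 935.4 to 6691 FPKM in somatodendritic knockdown libraries, and all 4 groups overlapped. Without axonal control replicate 4 the control compartments did not overlap, and limma called Rny3 lower in axons. Axonal control replicate 4, the library of the highest Rny3 in its group, is also the one with 33.04% mitochondrial FPKM. Whether these are linked was not tested. Rny1 was at 1109 to 1821 FPKM in somatodendritic control and at 113.0 to 944.8 FPKM in somatodendritic knockdown libraries, without overlap, but the difference of -2.33 (SE 0.59) was not called (limma adjusted p = 0.093). It was called on leaving out knockdown replicate 6 alone, the library of that group with a relative depth of 0.148. Relative to Rny3 in the same library, Rny1 was at 109 ± 52.5% in axonal control, 49.0 ± 9.60% in somatodendritic control, 32.5 ± 7.35% in axonal knockdown and 15.9 ± 8.98% in somatodendritic knockdown libraries. In both compartments every knockdown library was below every control library in this ratio.

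**Figure D4:**
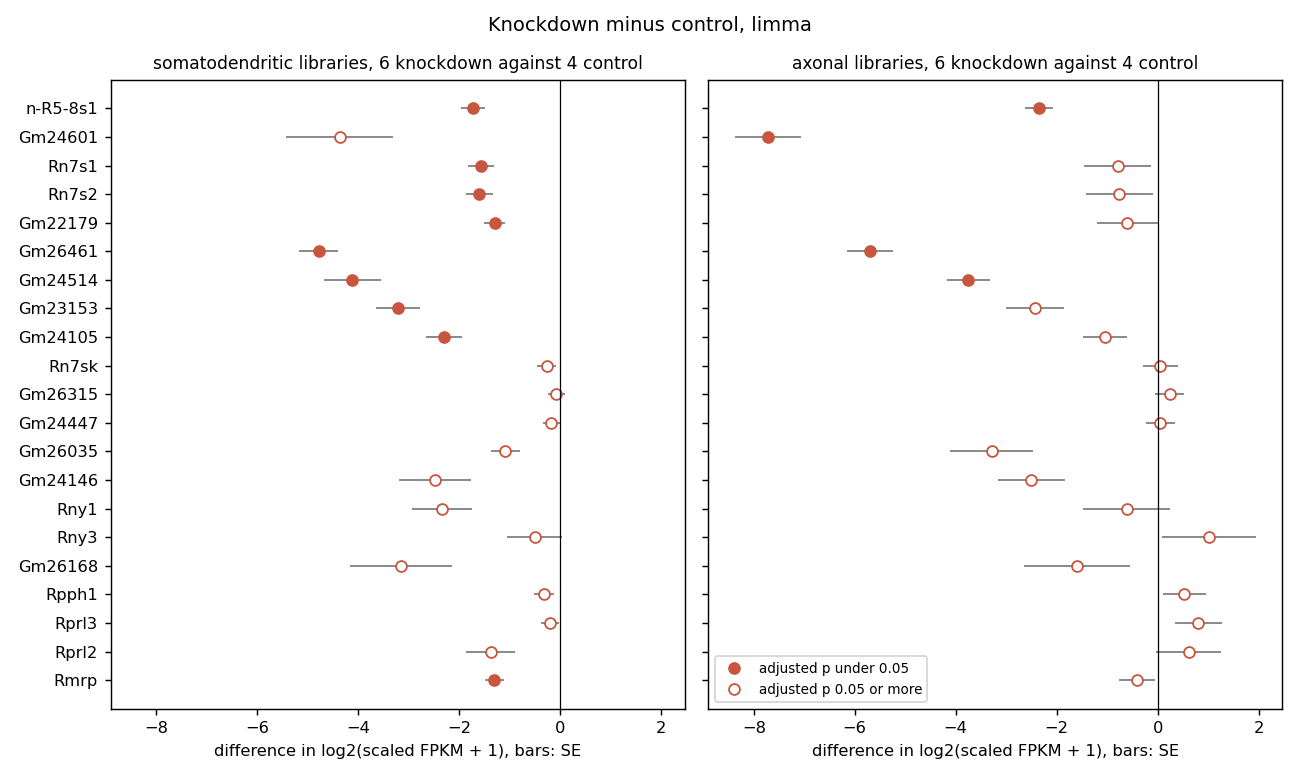
Log2 difference between Tdp-43 knockdown and control on the scaled log2(FPKM + 1) scale in limma, with its SE, for 21 genes in the somatodendritic (soma) and axonal (axon) compartment, where filled points passed an adjusted p of 0.05. Gm26461 stands at -4.77 and -5.70 and n-R5-8s1 at -1.72 and -2.35, filled in both compartments, while Rn7s1, Rn7s2 and Rmrp are filled in the somatodendritic compartment alone.

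The 21 other misc_RNA genes gave no call in any comparison with all libraries. TUG1_3 was called for axonal knockdown without control axonal replicate 2, and KCNQ1OT1_2 between compartments in knockdown without axonal replicate 4. They are mostly conserved regions of long non-coding RNAs such as Rmst, Kcnq1ot1, Tug1 and Miat that carry their own annotation. The highest, RMST_8, had a mean of 15.9 FPKM, was at 0 in 3 of 4 axonal control libraries and reached at most 3.1 implied fragments.

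Counted over the 58 distinct genes, control motoneurons had 7 called between compartments, or 12.1%, against 6.7% of all genes tested. Of these 2 were higher in axons (Gm26461 and n-R5s106) and 5 lower (Rn7sk, Gm26315, Gm24447, Gm24146 and Rmrp), against 3.56% and 3.14% of all genes, where n-R5s106 had met the limit through control axons alone. Groups did not overlap in deposited FPKM for 10 of the 58, or 17.2%, against 21.8% of all genes, so that in this measure the set was no more divided than other genes. In knockdown motoneurons limma called none between compartments, against 0.768% of all genes. At an unadjusted p under 0.05 there were 13 of the 58 and 2406 of the 14062 genes. Groups did not overlap for 4, all of them 7SK, or 6.9% against 2.54%.

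Knockdown against control gave 9 calls in the somatodendritic compartment, or 15.5%, all lower, against 1.14% of all genes in either direction and 0.86% lower. The 9 were the 7 of 7SL, which share reads and of which Gm24514, Gm23153 and Gm24105 passed the limit through control libraries, n-R5-8s1 and Rmrp. Groups did not overlap for 13, or 22.4%, all lower, against 6.08% of all genes. In the axonal compartment 5 were called, or 8.6%, all lower (n-R5-8s1, Gm24601, n-R5s106, Gm26461 and Gm24514), against 0.341% in either direction and 0.334% lower. Of these, n-R5s106 and Gm24514 had met the limit through control libraries, which favoured a lower value in knockdown. The same 5 were called without the library labelled axonal knockdown replicate 1, in which Tardbp was not lowered. In that library itself Gm26461 was at 12.56 FPKM and n-R5-8s1 at 1230.5 FPKM, below all axonal control libraries. Whether these levels follow the Tardbp level was not tested. Groups did not overlap for 7, or 12.1%, against 3.24%, with 6 lower and 1, Gm26315, higher. The median log2 difference over the 58 was -0.29 for somatodendritic and 0.03 for axonal knockdown. Only n-R5s106, which the rule required to be higher in control axons, was called for the difference of the knockdown effects, 1.7% against 0.0711% of all genes, so a gene called in 1 compartment alone, such as Rmrp, is not shown to differ between them.

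Genes for proteins that make or bind these RNAs gave few calls. Of all genes, 1.14% were called for somatodendritic and 0.341% for axonal knockdown. Between compartments 6.7% were called in control and 0.768% in knockdown, and 0.0711% for the difference of the knockdown effects. The list for the RNA polymerase I machinery held 15 genes and that for RNA polymerase III 27. The list for the signal recognition particle, its receptor and Sec61 held 13 genes. None of these genes was called by limma in any of the 5 comparisons. By list, 0, 4 and 1 had an unadjusted limma p under 0.05 for somatodendritic knockdown, beside 2048 of all 14062 genes. For axonal knockdown 3, 2 and 0 had one, beside 1257 of all 14062 genes. The median log2 differences of these lists in the somatodendritic knockdown were 0.21, -0.22 and -0.24, beside -0.13 for all genes. In the axonal knockdown they were -0.18, -0.29 and -0.49, beside -0.16. Among 24 genes of 5.8S maturation and the 5S particle 1 was called, Rpl11, a ribosomal protein that carries 5S rRNA into the large subunit. It fell in the somatodendritic knockdown (15.9 ± 3.08 against 31.5 ± 4.01 FPKM, log2 difference -1.16, SE 0.18, limma adjusted p = 0.0136) and was higher in axons than in the somatodendritic compartment of knockdown motoneurons (39.0 ± 8.81 FPKM, log2 difference 1.47, SE 0.21, limma adjusted p = 0.0153). The list for La, Ro, 7SK and RNase P or MRP proteins also held Tep1, Mvp and Parp4. Of its 19 tested genes 1 was called, Rpp14, a protein of RNase P. It was at 6.67 ± 2.40 FPKM in somatodendritic control, 0.271 ± 0.542 FPKM in axonal control (limma adjusted p = 0.0158) and 0.354 ± 0.866 FPKM in somatodendritic knockdown libraries (limma adjusted p = 0.0107).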

How the data were processed

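RNA-seq of 20 libraries was analysed as FPKM. The authors computed these values for each library with Cufflinks 2.2.1, per the labels, on GRCm38, and deposited them with a 95% interval; the submitters' processing notes also name FastQC 0.10.1. Aligner settings, strand handling and read totals are not given in the sources used here. Groups came from the sample titles. An FPKM interval was read as 2 SD of a count, which gives the implied fragments; relative depth was their median ratio over 680 genes. Values under 0.001 FPKM were taken as 0.

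The main test was limma 3.58.1 (R 4.3.3; lmFit, eBayes with trend) on log2(FPKM + 1) after median of ratios scaling, over genes whose mean in the 20 libraries reached 1 FPKM; the scripts were tested on simulated data. Single genes, the highest of each family and Gm26461, were tested by exact permutation of deposited FPKM. Positions, all 61 matched, came from GENCODE M21, and families from BLAST at an E-value of 1e-05. Python 3.11.15 was used with pandas 2.3.3, numpy 2.4.6 and, for figures, matplotlib 3.10.9.

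The members and gene lists were chosen with earlier results of these data known. The genes named are Gm26461 and n-R5-8s1, the reference small RNAs among the members, the 10 of highest mean in each class, every called member, the neighbours of the 1 FPKM limit, and Tardbp; Rprl3, Gm26035, RMST_8, Rpl11 and Rpp14 were named after their values were seen. Alternatives were other scalings, pseudocounts of 0.1 and 5, other filters, the replicate number as a block, all libraries in 1 fit, counting every copy and leaving out each library. Leaving out shallow libraries and re-expressing FPKM without mitochondrial genes were chosen after seeing the data. The sequences of these genes are not reported here.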

Additional observations from a re-analysis of the deposited data

Results flagged for a closer look

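In 6 of 60 groups of libraries checked, over 15 genes, the highest or lowest library stood far from the rest of its group. For independent, normally distributed values chance would give this in about 1 of 20 groups. These genes partly share reads, so this rate need not hold here. Rny3 was at 7052 FPKM in control axonal replicate 4, above the other 3 libraries at 643.5 to 684.4 FPKM. Rn7s2 at 20320 FPKM and Rn7s1 at 17840 FPKM were highest in control somatodendritic replicate 3, and these 2 genes share their reads. n-R5-8s1 was lowest in knockdown axonal replicate 5, at 719.6 FPKM. Rprl3 was lowest in control somatodendritic replicate 1, at 919.7 FPKM. Gm24601 was at 12.74 FPKM in knockdown axonal replicate 1, the library in which Tardbp was not lowered, and at 0 in the other 5 libraries. In that library Gm26461 was at 12.56 FPKM, the lowest of its group, and n-R5-8s1 at 1230.5 FPKM, below all axonal control libraries. The knockdown effect on n-R5s106 differed between compartments (limma adjusted p = 6.09e-05): it was listed at 0 in all knockdown libraries, and in control above 0 in all 4 axonal but in 1 of 4 somatodendritic libraries. It met the 1 FPKM limit through control axons alone, on at most 2.0 implied fragments, so that the choice of members favoured this difference and its p is no support.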

How the results depend on the processing

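No called member changed direction under any alternative run. The replicate block left 0 members called between compartments in control and for knockdown in either compartment, where 5, 0 and 0 of all 14062 genes were called, and kept 1 for the difference of knockdown effects; libraries of equal number deviated together with correlations of -0.04 to 0.07, so that the numbers are not shown to pair them. Between compartments in control, 7 calls became 3 with no filter on low values. Between compartments in knockdown, 0 became 2 with FPKM as deposited, 2 with quantile normalization and 5 with all 20 libraries in 1 fit. For axonal knockdown, 5 became 8 with all 20 libraries in 1 fit, 8 with every annotated copy counted and 3 without libraries of a relative depth under 0.3; n-R5-8s1 and Gm24514 were lost there. The difference of knockdown effects gave 4 with every copy counted, the 4 identical 5S genes. Leaving out each library in turn gave 4 to 10 calls in control between compartments, 0 to 1 in knockdown between compartments, 6 to 11 for somatodendritic and 5 to 6 for axonal knockdown, 1 to 2 for the difference, 4 to 10 of the 36 permutation tests (8 with all libraries) and 10 to 13 of 32 family sums without overlap (10 with all libraries). For n-R5s106, Gm24601, Gm24514, Gm23153, Gm24105, Gm26035 and Gm24146 depth limits the size of any difference.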
